A study of Homo sapiens with 4 samples.

Results

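Aldehyde dehydrogenases were followed in A549 cells, a line from a human lung adenocarcinoma, with and without GMI, an immunomodulatory protein named after the fungus Ganoderma microsporum. The members were the 10 genes ALDH1A1, ALDH1A3, ALDH1B1, ALDH2, ALDH3A1, ALDH3A2, ALDH3B1, ALDH7A1, ALDH9A1 and ALDH18A1, found by symbol among 57905 genes in each library. The 2 control libraries came from cells labelled as controls at 24 h, and the 2 GMI libraries from cells given 0.6 µM GMI for 24 h; all cells grew in DMEM with fetal bovine serum. The labels do not say whether controls received a vehicle, nor do they name separate cultures for the 2 libraries of each group. The spread behind every p-value is therefore that of these libraries and may be technical. A549 is 1 established line, and every value below is RNA of the whole culture, in which fewer cells of a kind and less RNA per cell cannot be told apart.

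Aldehyde dehydrogenases oxidise aldehydes to acids with NAD or NADP as the electron acceptor. The aldehydes come from ethanol, retinol, amino acids, choline and the breakdown of oxidised membrane lipids, and the isoenzymes differ in substrate and in their place in the cell. The cytosolic ALDH1A enzymes turn retinaldehyde into retinoic acid, and high activity of this class is a widely used mark of stem-like cells in carcinomas. ALDH1A1 and ALDH3A1 are known to be abundant in A549 cells, and both are known responders to the oxidant-sensing factor NRF2, which is constitutively active in this line because its inhibitor KEAP1 is mutated.

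After GMI, the most abundant isoenzymes, ALDH1A1 and ALDH3A1, had lower RNA levels, at 58.5% and 52.0% of the control mean. ALDH1B1 and ALDH1A3 were lower as well, at 72.9% and 72.4% of control. ALDH2, the mitochondrial acetaldehyde dehydrogenase, was the member that rose, to 120.1% of control. ALDH3A2, ALDH3B1, ALDH7A1, ALDH9A1 and ALDH18A1 did not pass the test. All 10 members passed the filter of at least 1 FPKM in at least 2 of the 4 libraries, where FPKM is the number of fragments per kilobase of gene and per 1000000 fragments. With limma on log2(FPKM + 1) and an adjusted p under 0.05, 4 of 10 members fell, where 6.12% of all 11598 tested genes fell, and 1 of 10 rose, where 9.3% of all genes rose; 15.4% of all genes changed in either direction. The median log2 fold change was -0.20 for the members and -0.01 for all tested genes. The members were chosen with earlier results of these data known, so these comparisons describe them and are not independent support. Of the 5 other aldehyde dehydrogenase genes tested, 0 rose and 0 fell. Both GMI libraries lay below both controls for 8 members, a pattern held by 30.4% of all tested genes, and above both controls for 1 member, against 29.8% of all genes. ALDH2 and ALDH1A3 lost the call whichever library was left out, and ALDH1B1 and ALDH3A1 lost it without control replicate 1 or 2. Without control replicate 1 or 2, the median log2 fold change of the members was -0.23 or -0.18. For all tested genes it was then -0.02 or 0.008. Without GMI replicate 1 or 2, the median was -0.25 or -0.16 for the members and 0.004 or -0.01 for all tested genes.

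The library denominators, read from the steps of the FPKM values, lay between 20560000 and 24090000 fragments, and 11301 to 11472 genes reached 1 FPKM. In all, 1079 genes were higher and 710 lower after GMI; with the libraries scaled to the sum without the 100 most abundant genes, 957 were higher and 1027 lower, so that higher genes made up 48.2% of the calls in place of 60.3%. Without control replicate 1 the counts were 43 and 31, without control replicate 2 they were 28 and 17, and without GMI replicate 2 they were 532 and 413. Of 6 epithelial markers, KRT7, KRT8, KRT18 and CDH1 reached 1 FPKM in every library, but EPCAM stayed between 0.29 and 0.35 FPKM and KRT19 below 1 FPKM. The 6 summed to 3808 to 3992 FPKM in controls and 3176 to 3187 FPKM after GMI, with KRT7 at 1176 and 1118 FPKM and then at 518 and 502 FPKM; the part of this shift in the results was not tested. None (0) of 4 alveolar type II markers, SFTPB, SFTPC, NKX2-1 and NAPSA, reached 1 FPKM in every library, and their summed level was 0.52 to 0.65 FPKM in controls and 0.78 FPKM in both GMI libraries. The leukocyte markers PTPRC and CD3E were listed at 0 throughout; with CD14 and CD68, this list of 4 summed to 3.11 and 3.16 FPKM in controls and 4.55 and 6.26 FPKM after GMI, and its part in the results was not tested. The 3 fibroblast markers summed to at most 0.92 FPKM, and VWF, the endothelial marker measured, to at most 0.05 FPKM.

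The absolute levels of the isoenzymes spanned more than 2 powers of 10. In controls ALDH1A1 stood at 1845 ± 4.24 FPKM (SD, n = 2, as in all values that follow), 9.64-fold above ALDH3A1 at 191 ± 4.25 FPKM. ALDH3A1 in turn stood 4.03-fold above ALDH2 at 47.5 ± 1.17 FPKM. Below these came ALDH3A2 at 42.2 ± 0.679 FPKM, ALDH18A1 at 39.2 ± 1.93 FPKM and ALDH3B1 at 30.2 ± 0.955 FPKM. ALDH1B1 at 16.2 ± 0.757 FPKM and ALDH9A1 at 13.6 ± 0.771 FPKM were intermediate, and ALDH7A1 at 6.38 ± 0.177 FPKM and ALDH1A3 at 5.72 ± 0.346 FPKM were the lowest in FPKM. This order, and the sums, shares and ratios below, depend on the gene lengths behind the FPKM, which the sources used here do not give. Approximate fragment numbers are FPKM multiplied by GENCODE 29 gene length and library denominator, so a longer gene ranks higher at the same FPKM. By these numbers in controls, ALDH7A1 at 2309 and 2814 stood above ALDH9A1 at 891 and 1131 and ALDH1B1 at 1015 and 1271. The lengths used were 17970 nt for ALDH7A1, 3308 nt for ALDH9A1 and 3155 nt for ALDH1B1. ALDH1A1 was the highest and ALDH1A3 the lowest by fragments too. In controls no neighbours in the FPKM order overlapped in their library values, although several were close, such as ALDH3A2 and ALDH18A1 with a ratio of 1.08 between their means. After GMI the FPKM order kept ALDH1A1, ALDH3A1 and ALDH2 at the top, ALDH3A2 and ALDH18A1 overlapped, and ALDH9A1 stood above ALDH1B1. By approximate fragment numbers, ALDH3A1 was above ALDH2 in controls, but after GMI ALDH2 at 12009 and 11700 stood above ALDH3A1 at 9145 and 7557. This order rests on the lengths used, 9720 nt for ALDH2 and 3918 nt for ALDH3A1. In FPKM, which corrects for length, ALDH3A1 stayed above ALDH2 after GMI, at a mean of 99.6 against 57.1. ALDH1A1 was the 21st most abundant of all genes in both controls and the 37th in both GMI libraries. ALDH3A1 ranked 214 and 213 in the controls and 416 and 504 after GMI.

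**Figure D1:**
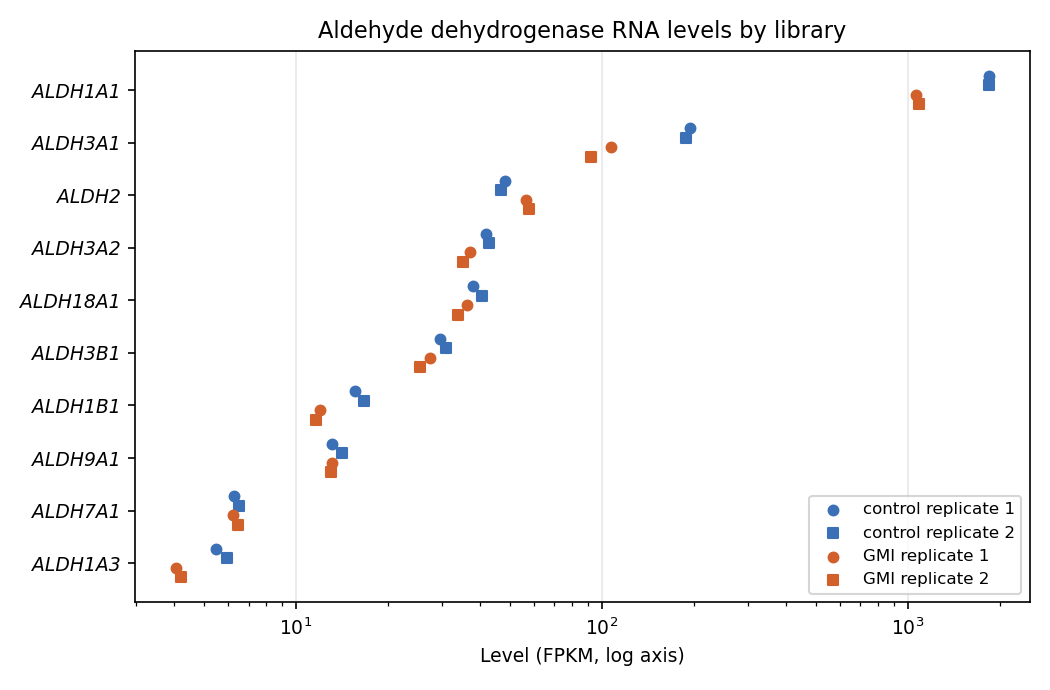
FPKM of each member (horizontal log axis) in the 4 libraries, blue for controls and orange for GMI, circles for replicate 1 and squares for replicate 2. The GMI points of ALDH1A1, at 1067 and 1091 FPKM, and of ALDH3A1, at 107 and 92.4 FPKM, lie well to the left of the controls, those of ALDH2 lie to the right, and those of ALDH7A1 fall among the controls.

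ALDH1A1 (ENSG00000165092, chromosome 9) makes the cytosolic retinaldehyde dehydrogenase that also oxidises aldehydes from lipid peroxidation. Its level was 1847.73 and 1841.74 FPKM in the controls and 1067.47 and 1091.24 FPKM after GMI. The libraries of each group lay close together, and the groups were 750.5 FPKM apart at their nearest values. The log2 fold change was -0.77 (SE 0.058, 95% confidence interval -0.91 to -0.63, adjusted p = 0.00104 with limma), lower than all but 0.828% of tested genes. ALDH1A1 was the 1 member whose call held when any single library was left out, with adjusted p = 0.0496 without control replicate 1 and 0.0472 without control replicate 2. With GENCODE 29 gene lengths, its level stood for about 64915 to 126403 fragments per library, so counting error was small beside the difference.

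ALDH1A3 (ENSG00000184254, chromosome 15) makes a second retinaldehyde dehydrogenase, a frequent source of high aldehyde dehydrogenase activity in tumour cells. It was the member with the lowest level, 5.47 and 5.96 FPKM in the controls and 4.05 and 4.22 FPKM after GMI. Both GMI values were below both controls. ALDH1A3 fell by 0.39 on the log2 scale, with a standard error of 0.080 (limma, adjusted p = 0.0239). The call was lost without any 1 of the 4 libraries: the adjusted p was 0.132 and 0.214 when control replicate 1 or 2 was left out, and 0.0703 and 0.0632 when GMI replicate 1 or 2 was. ALDH1A3 rested on about 509 to 829 fragments per library, and other genes cover 28.6% of its exon bases in GENCODE 29. Among these the opposite-strand gene AC015712.2 was listed at 0.63 to 0.76 FPKM. The strand setting of the counting is not given in the sources used here, so reads of such partners cannot be told apart.

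ALDH1B1 (ENSG00000137124, chromosome 9) makes a mitochondrial enzyme for acetaldehyde and other short aldehydes that can also oxidise retinaldehyde. It was measured at 15.65 and 16.72 FPKM in the controls and at 12.02 and 11.59 FPKM after GMI. The groups did not overlap, and ALDH1B1 fell by 0.42 on the log2 scale (SE 0.068, limma adjusted p = 0.0102). Without control replicate 1 its adjusted p was 0.103 and without control replicate 2 it was 0.149, while it passed without either GMI library.

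The upstream sequences of these 3 genes that fell are shown so that their promoters can be compared letter by letter. RefSeq promoters (GRCh38.p14) were matched for 8 of the 10 members in 10 entries, with ALDH2 and ALDH3A1 among those not matched. Each line gives the 250 bases before the annotated start, 5′ to 3′, for ALDH1A1 (chr9:72953054-72953303, minus strand), ALDH1A3 (chr15:100879581-100879830, plus strand) and ALDH1B1 (chr9:38392452-38392701, plus strand); capitals mark motif matches on either strand.
ALDH1A1: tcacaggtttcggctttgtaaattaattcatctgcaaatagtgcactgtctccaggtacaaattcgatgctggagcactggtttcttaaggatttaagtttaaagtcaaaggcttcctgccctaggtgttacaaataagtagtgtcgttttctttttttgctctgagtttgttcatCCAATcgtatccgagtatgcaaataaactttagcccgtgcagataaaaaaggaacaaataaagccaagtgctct
ALDH1A3: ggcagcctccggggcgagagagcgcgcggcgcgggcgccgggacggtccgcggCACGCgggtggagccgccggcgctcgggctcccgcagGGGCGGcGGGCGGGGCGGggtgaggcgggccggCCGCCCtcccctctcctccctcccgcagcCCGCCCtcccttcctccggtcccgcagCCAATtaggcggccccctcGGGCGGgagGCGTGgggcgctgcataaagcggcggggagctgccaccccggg
ALDH1B1: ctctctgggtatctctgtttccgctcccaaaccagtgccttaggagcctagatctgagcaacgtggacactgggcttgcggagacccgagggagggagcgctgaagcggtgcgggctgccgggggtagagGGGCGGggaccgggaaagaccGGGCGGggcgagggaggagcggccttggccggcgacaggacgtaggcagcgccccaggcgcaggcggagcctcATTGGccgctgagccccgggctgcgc
The motifs searched on both strands were the CCAAT box (CCAAT), the GC box (GGGCGG), the TATA box (TATAAA), the E-box bound by MYC (CACGTG), the core of the xenobiotic response element bound by AHR (GCGTG) and the core of the antioxidant response element bound by NRF2 (TGACNNNGC). All 3 windows hold a CCAAT box, whose first base on the given strand is 74 bases before the start in ALDH1A1 and 71 in ALDH1A3; in ALDH1B1 it lies on the opposite strand. CCAAT was found in 5 of the 10 member entries and in 11240 of all 35116 RefSeq promoter windows of this length. These entries include those of ALDH7A1 and ALDH3A2, which did not pass the test, so the box is not particular to genes that fell. The ALDH1A1 window holds none of the other motifs and has a GC content of 38.4%, below the median of 58% over all windows, while the ALDH1A3 and ALDH1B1 windows reach 82.4% and 70.4%. GC boxes occur in 6 of 10 member entries and 42.6% of all windows. The antioxidant response core occurs in 10.9% and the TATA box in 10.7% of all windows, and neither occurs in a member entry. Only the letters given were searched, so variant forms of a motif, such as a TATA box other than TATAAA, were not counted. A match is a description of letters, and the starts used in A549 cells were not measured here.

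**Figure D2:**
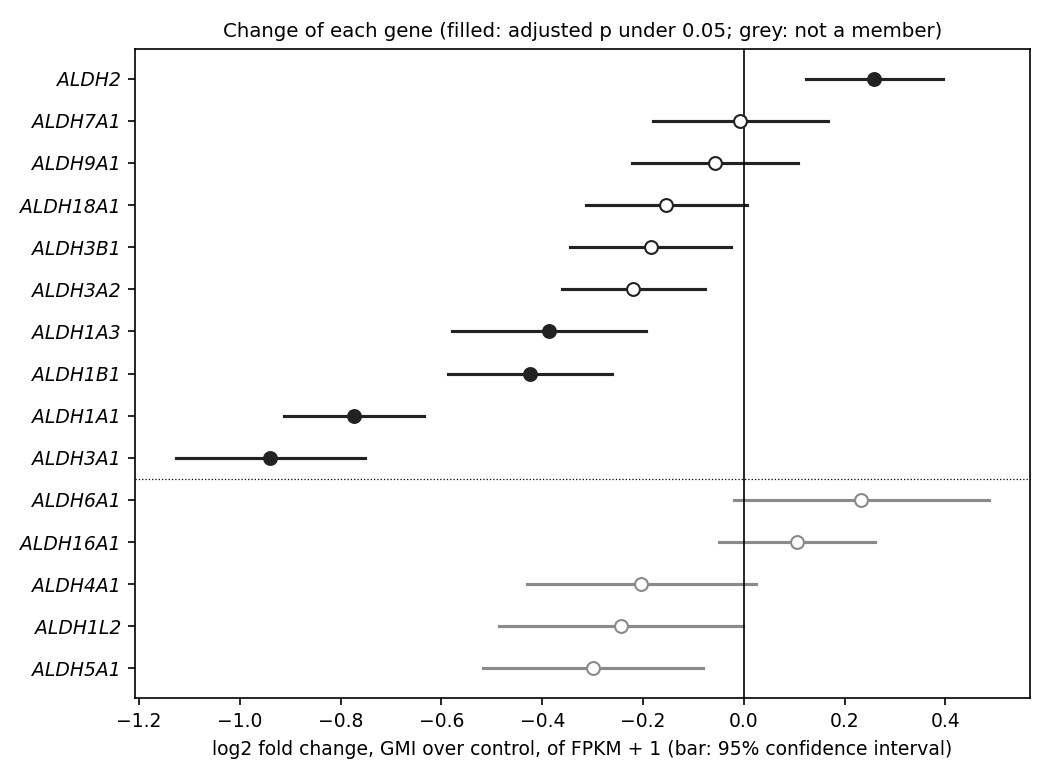
Log2 fold change of FPKM + 1, GMI over control, for the 10 members (black) and the 5 other aldehyde dehydrogenase genes above the filter (grey), with 95% confidence intervals from limma; filled points have an adjusted p under 0.05. ALDH3A1 at -0.94 and ALDH1A1 at -0.77 are farthest from 0, ALDH2 is the 1 filled point on the right, and the interval of ALDH7A1 runs from -0.18 to 0.17.

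The ALDH3 members act on longer and aromatic aldehydes. ALDH3A1 (ENSG00000108602, chromosome 17), an enzyme of cornea and airway tumours that oxidises aromatic and medium-chain aldehydes, was measured at 194.43 and 188.42 FPKM in controls and at 106.78 and 92.38 FPKM after GMI. The GMI libraries differed from each other by 14.4 FPKM, more than the controls did at 6.01 FPKM, but both stood at least 81.6 FPKM below the controls. Its log2 fold change of -0.94 (SE 0.078, 95% confidence interval -1.13 to -0.75, limma adjusted p = 0.00131) was the lowest among the members. Without control replicate 1 or 2 its adjusted p was 0.0530 or 0.0560, just past the threshold, with log2 fold changes between -1.04 and -0.84 over all alternatives. The opposite-strand gene AC005722.3, which shares 2.5% of the exon bases of ALDH3A1, was listed at 2.07 and 2.23 FPKM in controls and 1.03 and 0.54 FPKM after GMI.

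ALDH3A2 (ENSG00000072210, chromosome 17), the fatty aldehyde dehydrogenase of the endoplasmic reticulum, was at 41.68 and 42.64 FPKM in controls and at 36.96 and 35.21 FPKM after GMI. The groups did not overlap, but the log2 fold change of -0.22 (SE 0.060) missed the threshold with limma adjusted p = 0.0535. It passed under 4 alternatives, with adjusted p = 0.0301 at a mean FPKM of at least 5, 0.0326 with the sum without the 100 most abundant genes, 0.0433 after rescaling to TPM and 0.0457 with a robust prior. ALDH3B1 (ENSG00000006534, chromosome 11), a membrane-bound enzyme for lipid-derived aldehydes, was at 29.55 and 30.9 FPKM and then at 27.5 and 25.46 FPKM. Its groups did not overlap either, and its log2 fold change of -0.18 had an adjusted p of 0.110 with limma, with a 95% confidence interval of -0.34 to -0.03.

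ALDH2 (ENSG00000111275, chromosome 12), the mitochondrial enzyme that clears the acetaldehyde made from ethanol, went against the other called members. It was at 48.36 and 46.71 FPKM in controls and at 56.52 and 57.65 FPKM after GMI. The libraries of a group were at most 1.65 FPKM apart and the groups 8.16 FPKM apart, with a log2 fold change of 0.26 (SE 0.057, 95% confidence interval 0.12 to 0.40, limma adjusted p = 0.0279). The direction held in all 14 alternatives, from 0.22 to 0.28. The call did not hold in fits without 1 library, with adjusted p = 0.176 and 0.244 when control replicate 1 or 2 was left out and 0.0523 and 0.0748 when GMI replicate 1 or 2 was, nor without a mean-variance trend (0.0695). The same-strand gene AC002996.1 covers 7.00% of the exon bases of ALDH2 and was listed at 0 to 0.06 FPKM.

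None of the 3 members with dedicated metabolic substrates passed the test. ALDH7A1 (ENSG00000164904, chromosome 5), which acts in lysine breakdown, was at 6.25 and 6.5 FPKM in controls and at 6.24 and 6.44 FPKM after GMI. Its groups overlapped, the log2 fold change was -0.01 and the 95% confidence interval of -0.18 to 0.17 bounds the change. ALDH9A1 (ENSG00000143149, chromosome 1), which makes the butyrobetaine used for carnitine and also oxidises aminobutyraldehyde, was at 13.1 and 14.19 FPKM and then at 13.07 and 13.06 FPKM. Control replicate 1 and the GMI libraries were within 0.04 FPKM of each other and control replicate 2 was higher, with a log2 fold change of -0.06 (95% confidence interval -0.22 to 0.11). ALDH18A1 (ENSG00000059573, chromosome 10), the mitochondrial synthase of pyrroline-5-carboxylate for proline and ornithine, was at 37.82 and 40.55 FPKM in controls and at 36.24 and 33.99 FPKM after GMI. The groups did not overlap, but libraries of a group differed by 2.73 and 2.25 FPKM against a gap of 1.58 FPKM between groups (log2 fold change -0.15, limma adjusted p = 0.169).

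**Figure D3:**
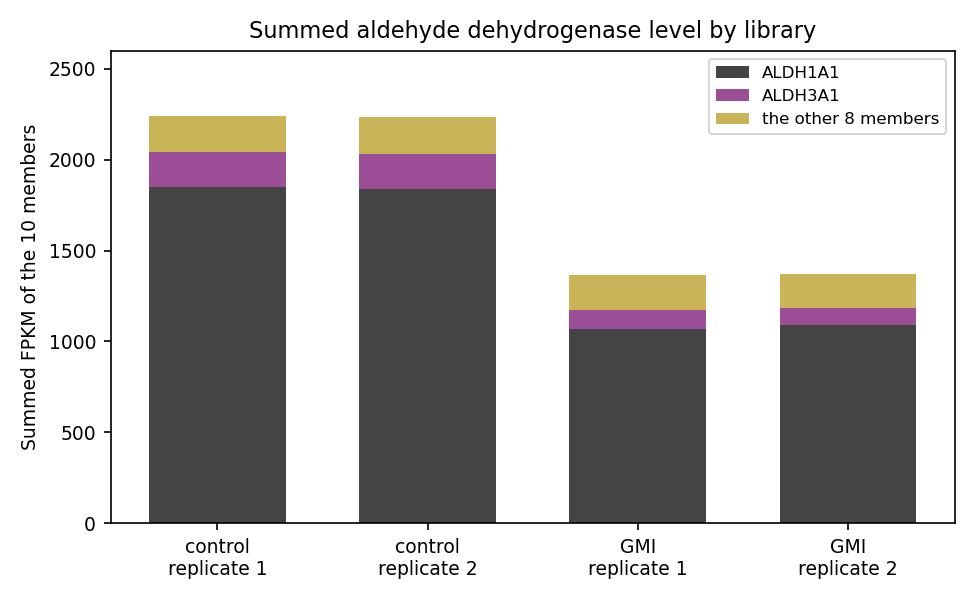
Summed FPKM of the 10 members in each library, stacked as ALDH1A1 (dark), ALDH3A1 (purple) and the other 8 members (yellow), on a vertical axis that starts at 0. The bars stand at 2240 and 2234 FPKM in controls and at 1367 and 1371 FPKM after GMI, and the yellow part differs little between them.

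Because ALDH1A1 outweighed the other isoenzymes, the summed level of the family followed it. The 10 members summed to 2237 ± 4.04 FPKM in controls and 1369 ± 3.10 FPKM after GMI, or 0.677% and 0.408% of the FPKM of all genes. ALDH1A1 made up 82.5 ± 0.041% of this sum in controls and 78.8 ± 1.05% after GMI. The mean of ALDH1A1 fell by 765.4 FPKM, and that of ALDH3A1 fell by 91.8 FPKM. The other 8 members together were at 201 ± 4.45 FPKM in controls and 190 ± 3.52 FPKM after GMI, with library sums of 197.9 and 204.2 FPKM against 192.6 and 187.6 FPKM. The share of ALDH2 in the summed FPKM was 2.12 ± 0.048% in controls and 4.17 ± 0.049% after GMI, that of ALDH3A1 8.56 ± 0.175% and 7.27 ± 0.760%. With the smaller sum after GMI, the mean share rose for each of the other 8 members, not for ALDH2 alone. The share of ALDH7A1 was 0.285% in controls and 0.463% after GMI, and that of ALDH1A3, which fell in level, 0.255% and 0.302%.

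Ratios between members of the same library do not depend on how libraries are scaled to each other. Their size does depend on the gene lengths behind the FPKM. ALDH1A1 was 38.2 and 39.4 times as abundant as ALDH2 in the controls and 18.9 and 18.9 times after GMI. ALDH3A1 was 4.02 and 4.03 times as abundant as ALDH2 in the controls and 1.89 and 1.60 times after GMI. Neither ratio overlapped between the groups. This follows from the member values, since ALDH1A1 and ALDH3A1 fell and ALDH2 rose, and adds no separate support to those calls. The ratio of ALDH1A1 to ALDH3A1 was 9.503 and 9.77 in the controls and 9.997 and 11.8 after GMI; the gap between the groups was smaller than that between the GMI libraries. These ratios are described, and no test of them was run.

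**Figure D4:**
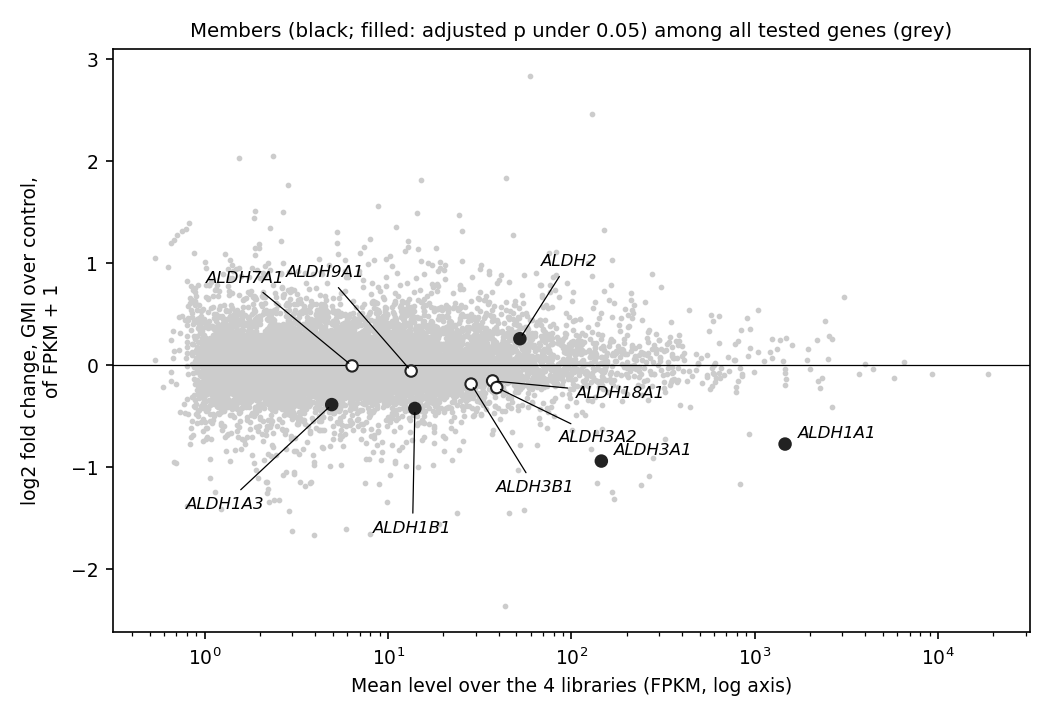
Log2 fold change of FPKM + 1 (vertical axis) against the mean FPKM over the 4 libraries (horizontal log axis) for the 11598 tested genes in grey and the 10 members in black, filled where the adjusted p was under 0.05. ALDH1A1 and ALDH3A1 lie at high levels below the body of the grey points, and the 5 open members lie within it.

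Of the other 9 aldehyde dehydrogenase genes, 8 stayed below 3 FPKM in every library, and ALDH16A1 lay in the range of the less abundant members. Of the 9, 5 passed the filter, and 0 rose and 0 fell with limma. Of these 5, 2 had an unadjusted p under 0.05, as did 3733 of all 11598 tested genes. The median log2 fold change of the 5 was -0.20, as for the members. ALDH16A1, a family member thought to lack catalytic activity in mammals, was highest at 11.9 ± 0.304 FPKM in controls and 12.9 ± 0.092 FPKM after GMI. ALDH5A1, the succinic semialdehyde dehydrogenase of GABA breakdown, was at 2.37 ± 0.035 and 1.74 ± 0.078 FPKM (log2 fold change -0.30, limma adjusted p = 0.0723). ALDH4A1, which oxidises the pyrroline-5-carboxylate of proline breakdown, was at 2.76 ± 0.057 and 2.27 ± 0.240 FPKM, and ALDH1L2, the mitochondrial formyltetrahydrofolate dehydrogenase, at 1.41 ± 0.057 and 1.04 ± 0.007 FPKM. ALDH6A1, of valine breakdown, was at 1.67 ± 0.226 and 2.14 ± 0.148 FPKM. ALDH1A2, the third retinaldehyde dehydrogenase, ALDH1L1, ALDH3B2 and ALDH8A1 did not exceed 0.07 FPKM in any library.

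ALDH1A1 and ALDH1A3 complete the route from retinol to retinoic acid. Of 15 tested genes of retinoid metabolism and its receptors, 2 rose and 0 fell, where 9.3% of all tested genes rose and 6.12% fell. Another 11 were below the filter, and the list median was 0.12. The 2 that rose act in opposite directions. RDH10, which oxidises retinol to retinaldehyde, was at 4.13 and 3.67 FPKM in controls and 7.57 and 8.26 FPKM after GMI (log2 fold change 0.86, limma adjusted p = 0.0021). DHRS3, which reduces retinaldehyde back to retinol, was at 7.77 and 6.33 FPKM and then at 11.3 and 12.3 FPKM (0.67, adjusted p = 0.00877). Both GMI libraries were above both controls for each gene. The retinoic acid receptor genes RARA, RARB and RARG did not pass the test, with log2 fold changes of -0.22, -0.29 and 0.01.

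Among 15 tested genes for other enzymes that clear reactive aldehydes, 3 rose and 0 fell, with a median of -0.04. With limma 7 of the 15 had an unadjusted p under 0.05, as did 3733 of all 11598 tested genes. Those of the 7 not called, AKR1B10, GSTA4, GLO1 and PTGR1, were all lower. AKR1C1, an aldo-keto reductase, rose from 60.1 ± 5.46 to 89.2 ± 1.97 FPKM (0.56), its near-identical relative AKR1C2 from 234 ± 5.19 to 283 ± 0.424 FPKM (0.27), and HAGH, a glyoxalase that ends methylglyoxal removal, from 8.57 ± 0.742 to 12.7 ± 0.403 FPKM (0.52). Fragments of AKR1C1 and AKR1C2 can be shared between these copies, so both are uncertain. The aldose reductase AKR1B1 was the one member of this list near ALDH1A1 in level, at 2030 ± 146 FPKM in controls and 1970 ± 46.2 FPKM after GMI, and did not pass the test (-0.04).

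Of 19 NRF2 pathway genes and targets, all tested, 1 rose and 2 fell, with a median of -0.01. HMOX1, heme oxygenase, rose from 68.3 ± 0.198 to 90.6 ± 0.226 FPKM (0.40), whereas the glutathione peroxidase GPX2 fell from 19.2 ± 1.32 to 11.2 ± 1.80 FPKM (-0.73) and the malic enzyme ME1 from 19.0 to 15.3 ± 0.552 FPKM (-0.30). NQO1, a classic NRF2 target, was at 339 FPKM in controls and 302 FPKM after GMI and did not pass (-0.17, limma adjusted p = 0.0830), although it passed after rescaling to TPM (0.0469) and with the sum without the 100 most abundant genes (0.0401). Of 14 tested genes listed around the regulation of ALDH1A1 or ALDH3A1 in other cells, 2 rose and 1 fell. The list is not of regulators alone, since it holds the enzyme gene CYP1B1. CEBPB, a factor known to act on the mouse Aldh1a1 promoter through a CCAAT box, rose from 56.7 and 55.5 FPKM to 87.2 and 80.1 FPKM (0.57). TIPARP, an AHR target and repressor, rose from 24.0 ± 0.983 to 30.5 ± 0.891 FPKM (0.33), and MYC fell from 42.3 ± 0.290 to 33.8 ± 0.240 FPKM (-0.31). A link of CEBPB, TIPARP or MYC to the levels of ALDH1A1 or ALDH3A1 was not tested.

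Around ALDH18A1, 2 of 8 tested proline and ornithine genes fell and 1 rose. The pyrroline-5-carboxylate reductases PYCR1 (26.1 ± 1.56 to 18.7 ± 0.552 FPKM, -0.46) and PYCRL (13.0 ± 0.530 to 9.10 ± 0.269 FPKM, -0.48), which act on the product of ALDH18A1, fell. GLUL, glutamine synthetase, rose from 1.09 ± 0.014 to 1.81 ± 0.085 FPKM (0.43). Around ALDH3A2, 1 of 11 tested genes of fatty aldehyde and sphingolipid routes rose and 0 fell: SPHK1, sphingosine kinase, was at 1.16 and 1.12 FPKM in controls and at 2.6 and 3.46 FPKM after GMI (0.90). Of 7 tested genes around ALDH7A1 and ALDH9A1, 0 rose and 0 fell with limma and 1 had an unadjusted p under 0.05, and the same counts, 0 and 0 with 1 unadjusted, held for 4 tested genes of alcohol oxidation. The lists are to be read against the 9.3% of all genes that rose and the 6.12% that fell. An unadjusted limma p under 0.05 was reached by 6 of 15 retinoid, 9 of 19 NRF2 and 4 of 8 proline and ornithine genes. It was also reached by 2 of 11 fatty aldehyde genes, 7 of the 14 genes listed around regulation and 3733 of all 11598 tested genes. Of the 15 genes of 6 lists described as having risen or fallen, 15 lost the call without control replicate 1 and 15 without control replicate 2, while 3 did without GMI replicate 1 and 3 without GMI replicate 2.

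**Figure D5:**
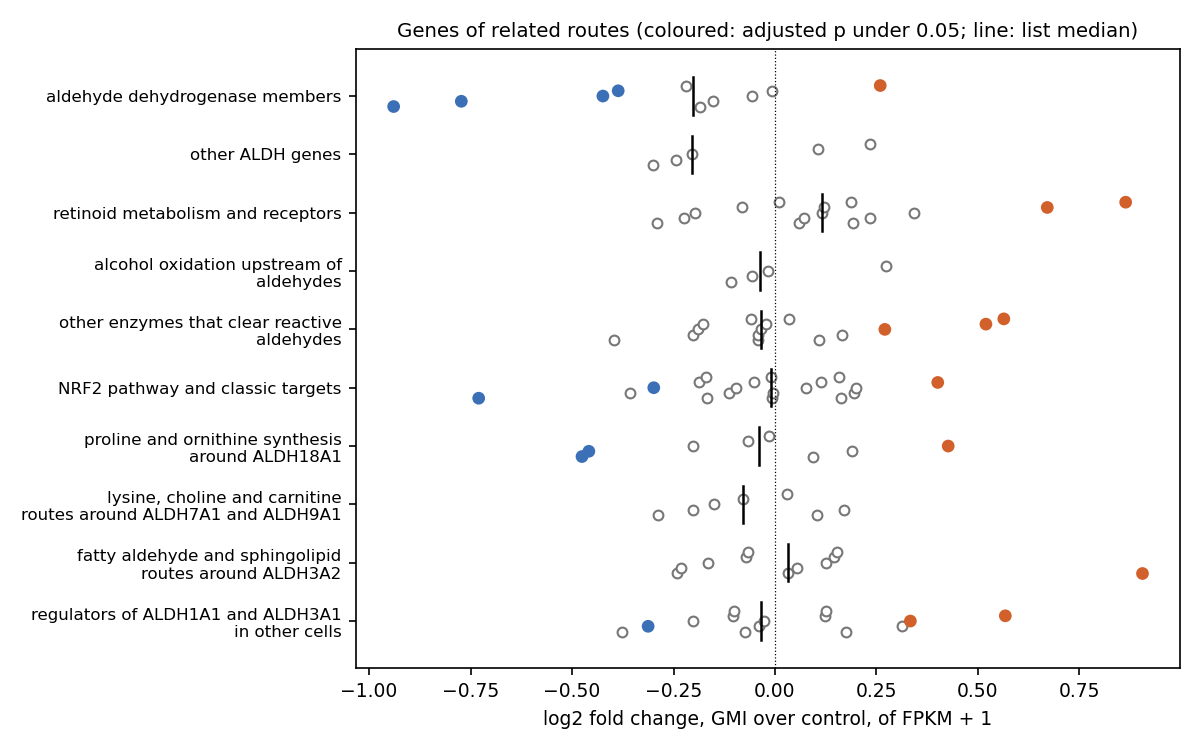
Log2 fold change of FPKM + 1, GMI over control (horizontal axis), for each tested gene of the members and of 9 related lists (rows); orange points rose and blue points fell at an adjusted p under 0.05, open points did not pass, and the vertical line is the list median. The members hold the points farthest to the left, at -0.94 and -0.77, while RDH10 and SPHK1 are farthest to the right at 0.86 and 0.90.

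The genes whose 4 library values most resembled those of ALDH1A1 and ALDH3A1 were sought among 3823 other genes with a mean of at least 10 FPKM, by the Euclidean distance of log2(FPKM + 1) deviations from the control mean. For ALDH1A1 the nearest 4 were PMEPA1 at a distance of 0.038, ANXA3 at 0.059, KRT86 at 0.073 and TUBG1 at 0.094. For ALDH3A1 they were TUBB at 0.080, TUBB2A at 0.11, CDC42EP3 at 0.13 and RP3-416H24.1 at 0.16. TUBB, a β-tubulin gene, was at 358 and 368 FPKM in controls and 203 and 182 FPKM after GMI, so its GMI libraries differed in the same order as those of ALDH3A1. These likenesses rest on 4 libraries and describe them only.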

How the data were processed

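The deposited files hold FPKM values that the authors computed, written to 2 decimals for 57905 Ensembl genes in 1 file per library. The submitters' processing notes name the build GRCh37 and 4 tools, HTSeq 0.6.1, HISAT2 2.0.1, cutadapt 1.9.1 and bcl2fastq 2.17.1.14, without their roles. No source used here gives the annotation release, the gene lengths or the strand setting.

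Genes with at least 1 FPKM in at least 2 of 4 libraries were fitted with limma 3.58.1 (R 4.3.3) on log2(FPKM + 1), without covariates and with the prior variance following the mean level. Benjamini-Hochberg adjustment ran over all 11598 genes. The prior had 4.69 and each gene 2 residual degrees of freedom. Fold changes on this scale understate those of low genes. The procedure was tested on simulated data. No count test was run, because FPKM are not counts. Data were handled with Python 3.11.15, pandas 2.3.3 and numpy 2.4.6.

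Denominators were the totals that made FPKM of genes up to 200 nt and below 20 FPKM whole fragments within 0.006 FPKM, for 95.8% to 96.8% of values against 2.82% to 3.21% by chance. Fragment numbers and exon overlaps used GENCODE 29 (GRCh38), so they are approximate. Chi-square per degree of freedom was 4.86 between controls and 9.59 between GMI libraries, where 1 is counting error alone; this does not tell technical from biological replicates.

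The members and the 9 lists (139 entries) were chosen with earlier results of these data known. All members are named, the other family members, up to 3 called genes with the smallest adjusted p per list, and 4 neighbours by pattern; AKR1B1, NQO1 and the retinoic acid receptors were named after their values were seen. 1 entry, BCO1, was matched by its identifier.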

Additional observations from a re-analysis of the deposited data

How the results depend on the processing

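Besides the fit reported, 14 alternatives were run. Without a filter on low values, 0 genes rose and 1 fell of 26758 tested, 4500 had an unadjusted p under 0.05, and 0 members rose and 0 fell, although 1 was higher and 6 lower at an unadjusted p under 0.05. Without a mean-variance trend 0 members rose, since ALDH2 missed the threshold. Fits without 1 library gave 28 to 856 genes higher and 17 to 513 lower, 0 to 0 members higher and 1 to 3 lower; a lone library was there assumed to vary like the other group. The log2 fold change of ALDH7A1 in these fits ran from -0.031 to 0.018 and was above 0 without control replicate 2 (0.018) and without GMI replicate 1 (0.013). Other pseudocounts, scalings, filter on the mean and prior kept 1 member higher and 4 or 5 lower, the fifth being ALDH3A2; at a mean of at least 5 FPKM ALDH1A3 was not tested and ALDH3A2 was among the 4. With the replicate number as a block, 1191 genes rose, 809 fell, 1 member rose and 4 fell. Deviations of same-numbered libraries correlated at -0.04 over genes, so no shift shared by same-numbered libraries was seen. This value cannot tell whether the numbers stand for shared cultures or runs, which the labels do not say. Of 139 results for members under alternatives, 115 kept direction and side of the threshold, 18 lost the call, 4 gained it and 2 changed sign. Of 454 for the 33 other genes with a reported fold change, 373 kept both, 74 lost the call, 2 gained it (NQO1) and 5 changed sign, all in genes that did not pass: RARG with TPM (-0.010), the sum without the 100 most abundant genes (-0.025) and fits without 1 library (-0.0985 to 0.120), and AKR1B1 in the latter (-0.115 to 0.0316). The identity between member proteins was not computed.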
